A study of Mus musculus with 4 samples.

Results

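The genes described here encode the 4 ligand and receptor systems first known for steering growing nerve fibres, the ephrins with their Eph receptors, the semaphorins with their plexin receptors, the Slits with their Robo receptors, and the netrins with their Unc5 receptors. They were taken by symbol alone, though the set was chosen with earlier results of these data known. Every gene that the deposited table lists under an Eph, ephrin, semaphorin, plexin, Slit, Robo, netrin or Unc5 symbol was included, which gave 64 of the 22305 genes that could be named, carried by 68 probe sets. A gene with several probe sets was represented by the one with the highest mean signal. Ntn3 is listed under an older symbol and so fell outside the rule.

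Ephrins are tethered to the membrane, by a lipid anchor in the A class and by a transmembrane segment in the B class, and they bind Eph receptor tyrosine kinases on touching cells, so that signals can run into both cells. Semaphorins act through plexins, and the secreted class Sema3 proteins mostly need a neuropilin as co-receptor, while Slits bind Robo receptors and netrins bind Unc5 receptors and Dcc. Outside the nervous system these families shape boundaries between tissues, the patterning of vessels and the exchange between bone-forming and bone-resorbing cells, and cartilage carries many of them without innervation.

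RNA was hybridised from primary rib chondrocytes of newborn mice at 0.5 days of age, on a mixed C57B6/129Sv background. Before RNA was taken, the isolated cells spent a night in serum-containing culture. Of the 4 arrays, 2 were labelled wild-type (Wt) and 2 Eed conditional knockout (Eed cKO), the latter with floxed Eed removed by a Cre recombinase under a Col2a1 promoter, which acts in cells that have made type II collagen and their descendants. Eed is a core subunit of Polycomb repressive complex PRC2, which places the H3K27me3 mark on silenced genes. The labels do not say whether an array held the cells of a single pup or of several, nor which arrays came from the same litter, though the methods state that controls and mutants were littermates. The spread between arrays of a group may therefore be technical in part. Whether the Wt pups carried the Cre or a floxed allele is likewise not in the labels. A higher array signal in such bulk RNA cannot be told apart from a larger share of the cells that make the transcript.

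The Eed signal checked the labels. It was 3597 and 3530.4 in the Wt arrays and 1057 and 990.3 in the Eed cKO arrays, a log2 difference of -1.77 with an adjusted p of 7.03e-05. Array medians lay between 830.4 and 837.4. Each group held one array with high Xist and one with high Ddx3y, a Y-linked gene, so these transcripts crossed the groups. Xist read 17820 and 3633.5 in Wt and 4845 and 17196 in Eed cKO. Ddx3y read 192 and 4664 in Wt and 4324 and 622 in Eed cKO. Whether an array held cells of both sexes was not tested. Of 9 chondrocyte markers, all tested, Matn1 was higher by 0.56 (adjusted p 0.0129), Acan fell by 0.12 on the log2 scale (adjusted p 0.0305) and 7 did not pass. Both Eed cKO arrays were below both Wt arrays for 6 of the 9, against 29.1% of all genes. Their summed signal lay between 221268 and 227482 on all arrays, and Col2a1 between 36621 and 37633. Osteoblast markers moved with the genotype. Of the 5 measured genes 4 were higher in Eed cKO, against 9.63% of all genes tested. The signals of the 5 summed to 13482 and 15677 in Wt and to 26344 and 33123 in Eed cKO.

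Of the 64 guidance genes, 53 passed the filter on low values and were tested. In Eed cKO chondrocytes 23 of them were higher, 1 was lower and 29 did not pass the test at an adjusted p of 0.05. Across all 14944 genes tested, 9.63% were higher and 6% were lower, 15.6% in either direction. The median log2 difference of the 53 genes was 0.26, against 0.00 over all genes. Both Eed cKO arrays lay above both Wt arrays for 39 of the 53 guidance genes, against 31.1% of all genes, and below them for Efna1, Epha10 and Sema3g, against 29.1% of all genes. The groups overlapped for 11. Genes that pass a filter on the mean signal only because the Eed cKO arrays are bright are bound to differ, and Epha7, Sema3a and Slit1, all called higher, had Wt means under the filter, as did Robo4 and Sema4d, which were not called.

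**Figure D1:**
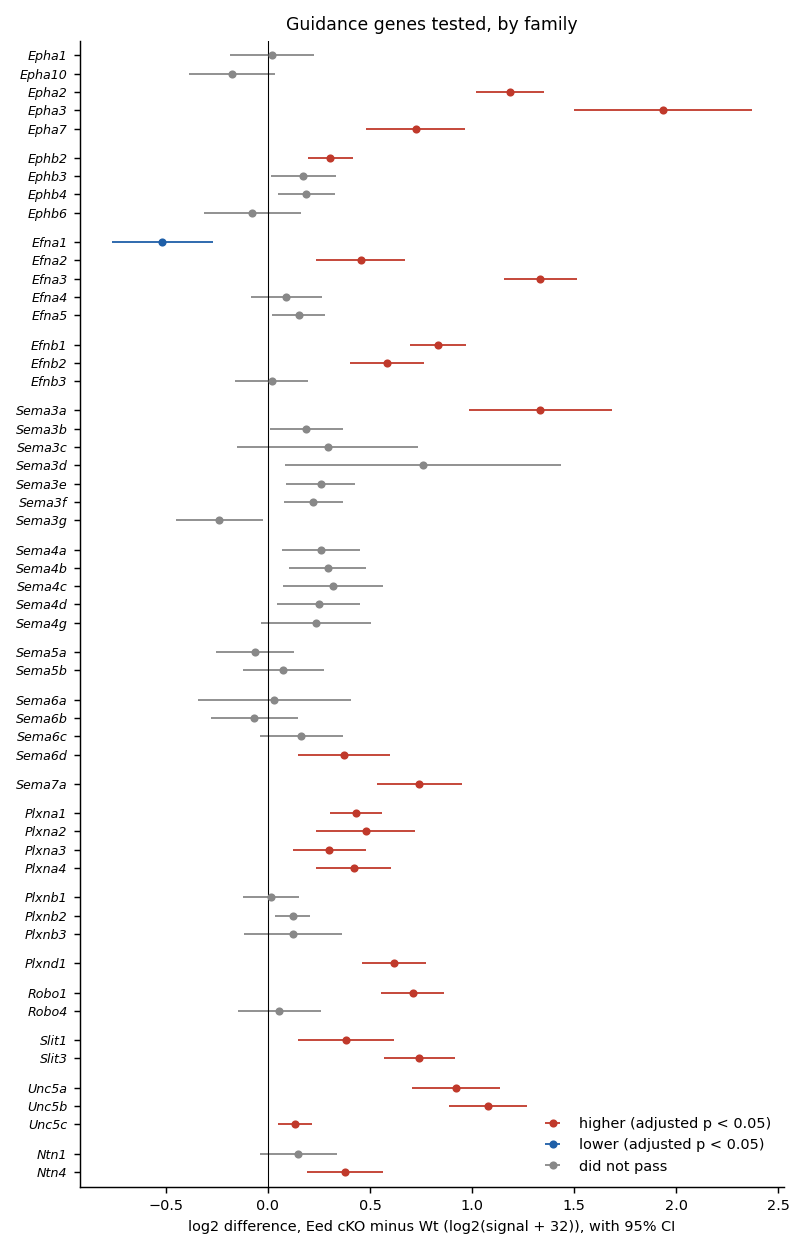
Log2 difference of Eed cKO minus Wt on the log2(signal + 32) scale for the 53 guidance genes tested, grouped by family, with 95% confidence intervals from the limma fit (n = 2 arrays per group). Red marks the 23 genes higher at an adjusted p of 0.05, blue the single lower gene, Efna1, and grey the 29 that did not pass. Epha3 lies farthest to the right at 1.94, and 47 of the 53 points lie above 0.

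Receptors and ligands were counted apart. Of 22 receptor genes tested 13 were higher (59.1%), and of 31 ligand genes tested 10 were higher (32.3%) and 1 lower. Of all genes tested, 9.63% were higher and 6% lower. By family, 4 of 9 tested Eph receptors and 4 of 8 ephrins were higher, as were 5 of 8 tested plexins and 3 of 19 tested semaphorins. Of 7 Slit and Robo genes 4 were tested and 3 were higher, and of 6 netrin and Unc5 genes 5 were tested and 4 were higher. These family counts include Epha7, Sema3a and Slit1, whose Wt means lay under the filter. The semaphorin share of 15.8% lay nearest to that of all genes. The differences in share between families were not tested. Of the 5 genes at least 2-fold higher on the log2(signal + 32) scale, Epha2, Epha3 and Unc5b encode receptors and Efna3 and Sema3a encode ligands.

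**Figure D2:**
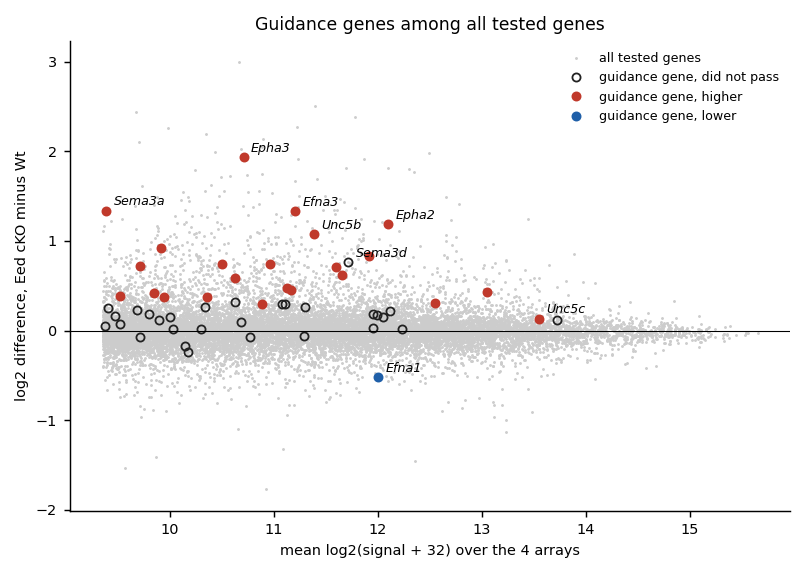
Log2 difference of Eed cKO minus Wt against the mean log2(signal + 32) over the 4 arrays for all 14944 genes tested (grey) with the guidance genes overlaid, filled red where higher, blue where lower and open where the test was not passed. The called genes span the range of mean signal, from Sema3a near the filter to Unc5c, the called gene farthest to the right, whose difference was 0.13.

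The largest rise of the set was in Epha3, a receptor tyrosine kinase for ephrin-A ligands known in embryonic mesenchyme and in muscle and motor nerve patterning. The Epha3 signal was 691 and 989 in the Wt arrays and 2829.8 and 3741 in the Eed cKO arrays. Both Eed cKO arrays stood well above both Wt arrays, though within each group the second array was the brighter. The ratio of the means was 3.91, and the log2 difference was 1.94 with a standard error of 0.18 and an adjusted p of 0.00110. Leaving out any single array gave values from 1.69 to 2.18, all past the threshold.

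Epha2, a close relative with broad roles in epithelia and in lens and bone cells, read 2910.4 and 2856 in Wt and 7020.2 and 6203 in Eed cKO. The Wt arrays were nearly equal, and the ratio of the means was 2.29, with a log2 difference of 1.19 (SE 0.07) and an adjusted p of 0.000199. Epha7, a receptor with roles in the forebrain, was dim in Wt at 614 and 627 and reached 952 and 1148 in Eed cKO, a log2 difference of 0.72 (adjusted p 0.00497). Its Wt values sat at the filter, which was a signal of 623. Epha1 and Epha10, the latter a receptor without kinase activity, did not pass, at log2 differences of 0.02 and -0.18. Epha10 read 1124 and 1224 in Wt and 981 and 1092 in Eed cKO, so both of its Eed cKO values were the lower ones. On its second probe set, at 809 and 836 in Wt and 715 and 839 in Eed cKO, the groups overlapped.

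Epha4, Epha5, Epha6 and Epha8 stayed under the filter on low values and were not tested. Epha4, which binds ephrins of both classes, was 449.6 and 478 in Wt and 550.3 and 653 in Eed cKO. In a fit without the filter its log2 difference was 0.35 with an adjusted p of 0.0863. The other 3 receptors differed by between -0.06 and 0.10 in that fit.

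Among receptors for the transmembrane ephrins, Ephb2 was the called gene. It was 5378 and 5392 in Wt and 6661 and 6664 in Eed cKO, so that the arrays of each group nearly coincided and the groups were apart by a log2 difference of 0.31 (adjusted p 0.00634). Ephb4, the receptor of osteoblasts and veins, read 3745 and 3633 in Wt and 4325 and 4092 in Eed cKO, a difference of 0.19 that did not pass (adjusted p 0.0772). Ephb3 read 3688 and 3912 in Wt and 4093 and 4491 in Eed cKO. Its difference of 0.17 did not pass with all arrays (adjusted p 0.138) and passed narrowly without Eed cKO replicate 1 (0.0482). Ephb6, which lacks kinase activity, differed by -0.08 with overlapping groups, and Ephb1 was under the filter, with 497 and 525 in Wt and 537 and 591 in Eed cKO.

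The promoters of Epha3, the receptor with the largest difference, and of Sema3a, a ligand whose difference equalled that of Efna3, are printed here with the CpG dinucleotides in capitals, because CpG-rich start sites are where PRC2 is known to bind. Both were read from the RefSeq table of GRCm38.p6, 300 bases each around the start, 5′ to 3′. These positions place the RefSeq start and not the probes, whose annotation build was not given in the sources used here.
Epha3, chr16:63864126-63864425, minus strand: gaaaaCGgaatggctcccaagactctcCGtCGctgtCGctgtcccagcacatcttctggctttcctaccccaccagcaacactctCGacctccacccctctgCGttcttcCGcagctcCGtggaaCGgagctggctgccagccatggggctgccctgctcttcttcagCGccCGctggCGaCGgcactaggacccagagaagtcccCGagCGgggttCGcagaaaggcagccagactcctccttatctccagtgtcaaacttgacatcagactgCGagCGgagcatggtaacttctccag
Sema3a, chr5:13396534-13396833, plus strand: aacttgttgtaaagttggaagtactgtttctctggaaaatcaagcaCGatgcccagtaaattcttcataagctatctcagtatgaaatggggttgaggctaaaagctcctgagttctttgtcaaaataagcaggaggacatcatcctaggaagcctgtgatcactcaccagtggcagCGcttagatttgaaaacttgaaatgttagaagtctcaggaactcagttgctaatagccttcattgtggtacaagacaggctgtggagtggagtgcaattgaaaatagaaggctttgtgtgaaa
The Epha3 promoter holds 18 CpG dinucleotides and that of Sema3a holds 2, the latter from a start that is the single one listed for the gene. Over the first listed promoter of every tested gene that could be matched, 10978 of 14944, the median was 20 and 78.9% held 10 or more. The 23 higher guidance genes, of which 20 matched, had a median of 23.5, and 95% of them held 10 or more. Those that did not pass, 24 of 29 matched, had a median of 22 and a share of 75%. All higher genes of the table had a median of 19 and a share of 74.5%. These counts describe the sequence, and no test of binding is in these data.

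Ephrin-A ligands moved in both directions. Efna3 rose, with signals of 1483 and 1434 in Wt and 3925 and 3536 in Eed cKO. The Wt values were close together and every Eed cKO value was more than 2-fold above them. The log2 difference was 1.33 (SE 0.08), with an adjusted p of 0.000162. Efna1, a ligand best known from endothelium and as a preferred partner of Epha2, was the one guidance gene that fell. It was 5089 and 4696 in Wt and 3800.2 and 3049 in Eed cKO, without overlap, and fell by 0.52 on the log2 scale (SE 0.10, adjusted p 0.0178). Without any single array the adjusted p of Efna1 was at most 0.0307.

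Efna2 rose by 0.45 on the log2 scale, from 2110.3 and 1771 in Wt to 2639 and 2679 in Eed cKO (adjusted p 0.0185). Its Wt arrays were the farther apart, and without Wt replicate 2 the call was lost (adjusted p 0.0940). Efna4 was 1598 and 1542 in Wt and 1621 and 1727 in Eed cKO, a difference of 0.09 (95% confidence interval -0.08 to 0.27, adjusted p 0.466). Efna5, a ligand of Epha3 and other A receptors, was 3929 and 4081 in Wt and 4399.6 and 4497 in Eed cKO, and its difference of 0.15 did not pass (adjusted p 0.116).

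Efna1, Efna3 and Efna4 follow each other on chromosome 3 with no protein-coding gene between them in the RefSeq order, and gave 3 different outcomes. Their promoters are printed for this contrast, from the same table and with CpG dinucleotides in capitals.
Efna1, chr3:89280902-89281201, minus strand: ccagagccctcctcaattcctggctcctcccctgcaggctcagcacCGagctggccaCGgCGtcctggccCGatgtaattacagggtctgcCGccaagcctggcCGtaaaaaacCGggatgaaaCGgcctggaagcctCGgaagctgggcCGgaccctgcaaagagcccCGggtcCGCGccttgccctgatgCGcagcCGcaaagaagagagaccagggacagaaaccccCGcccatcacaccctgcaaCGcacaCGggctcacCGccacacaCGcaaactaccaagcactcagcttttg
Efna3, chr3:89322890-89323189, minus strand: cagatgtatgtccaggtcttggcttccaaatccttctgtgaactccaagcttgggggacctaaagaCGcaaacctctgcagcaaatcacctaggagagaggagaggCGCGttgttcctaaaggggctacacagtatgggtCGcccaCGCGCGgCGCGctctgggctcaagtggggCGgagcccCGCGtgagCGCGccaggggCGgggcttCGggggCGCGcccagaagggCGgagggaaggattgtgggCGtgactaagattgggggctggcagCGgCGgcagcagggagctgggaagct
Efna4, chr3:89337979-89338278, minus strand: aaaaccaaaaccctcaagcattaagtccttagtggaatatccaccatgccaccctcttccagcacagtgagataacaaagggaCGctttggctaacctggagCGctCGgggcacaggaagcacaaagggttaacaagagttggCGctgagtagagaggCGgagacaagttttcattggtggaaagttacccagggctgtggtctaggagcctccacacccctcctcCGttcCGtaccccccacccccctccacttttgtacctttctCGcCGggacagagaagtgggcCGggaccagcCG
They hold 20, 22 and 11 CpG dinucleotides. RefSeq lists a second start for Efna1 and for Efna3, which is not shown. On the first listed starts the lower gene and the higher gene have promoters of nearly equal CpG content, and the gene that did not pass has fewer. Whether CpG content goes with the outcome was not tested.

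On the Efna1 side of the cluster, the sugar transporter Slc50a1 read 8849 and 9090.4 in Wt and 8830.2 and 9003 in Eed cKO, with an adjusted p of 0.914. Beyond it Dpm3 was higher by 0.20, while Krtcap2 and Trim46 did not pass. On the Efna4 side the metalloprotease Adam15 was higher by 0.23 (adjusted p 0.0225), Dcst1 and Dcst2 were under the filter, and the zinc finger gene Zbtb7b was higher by 0.38 (adjusted p 0.00912). Of the 8 flanking genes, 3 were higher and none was lower, with Dcst1 and Dcst2 not tested, against 9.63% and 6% of all genes. Efna3 had the largest difference of the stretch. These flanking genes were chosen by position, with the values known.

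**Figure D3:**
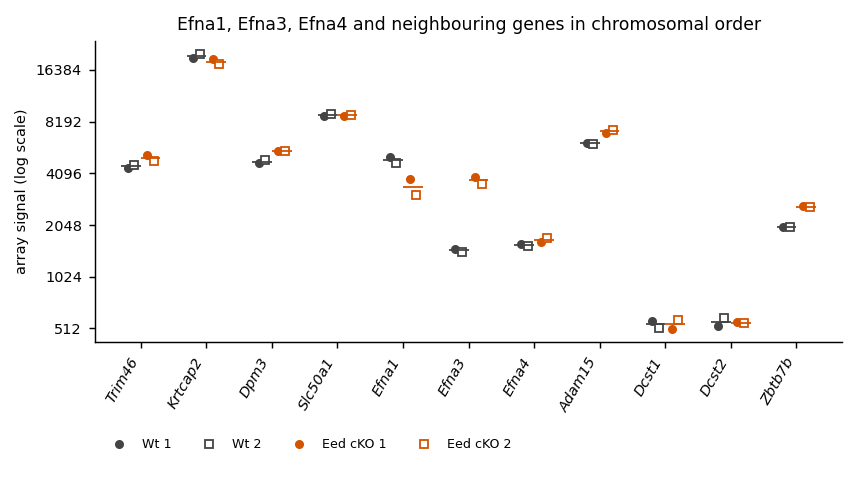
Array signal on a log scale for Efna1, Efna3, Efna4 and the genes beside them in chromosomal order, with each array as a point (filled circles replicate 1, open squares replicate 2, grey Wt, orange Eed cKO) and group means as short lines. Efna1 is lower in both Eed cKO arrays, Efna3 is higher in both, and Efna4 differs by 0.09. Heights of different genes are not comparable, since each has its own probes.

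Of the transmembrane ephrins, Efnb1, whose loss in humans causes a craniofacial malformation, read 2816 and 2931 in Wt and 5044 and 5247 in Eed cKO. The arrays of a group were close and the groups clearly apart, with a ratio of the means of 1.79, a log2 difference of 0.83 and an adjusted p of 0.000334. Efnb1 lies on the X chromosome, and the arrays with higher and with lower Xist in each group gave nearly the same value. Efnb2, the ligand that marks arteries and that pairs with Ephb4 between osteoclasts and osteoblasts, rose from 1230.4 and 1288 to 1969 and 1838, a log2 difference of 0.58 (adjusted p 0.00354). Efnb3, known from the spinal cord midline, overlapped between the groups and differed by 0.02 (95% confidence interval -0.16 to 0.20).

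**Figure D4:**
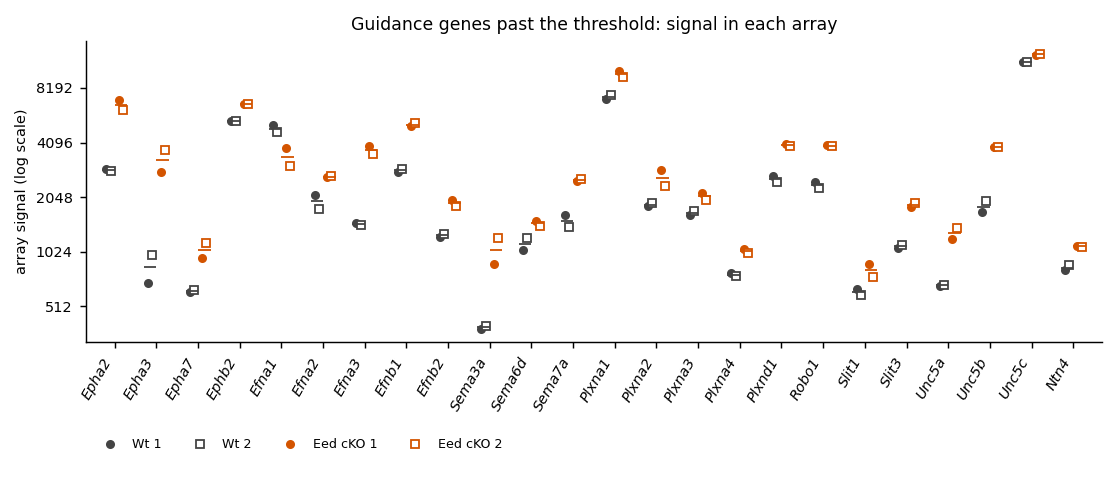
Array signal on a log scale for each of the 24 guidance genes past the threshold, with each array as a point (filled circles replicate 1, open squares replicate 2, grey Wt, orange Eed cKO) and group means as short lines. The groups do not overlap for any gene shown. Efna1 is the gene with the Eed cKO points below, and the narrow gap of Unc5c stands beside the wide gap of Epha3.

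Among the secreted class Sema3 proteins, which act as repellents through neuropilins and class A plexins, Sema3a was called out of 7 tested. It read 385 and 398 in Wt and 876 and 1225 in Eed cKO. The Wt values lay under the filter, the Eed cKO values lay above it, and the ratio of the means was 2.68, with a log2 difference of 1.33 (SE 0.15) and an adjusted p of 0.00193. Sema3a is known in bone as a factor that favours osteoblasts over osteoclasts and that guides sensory nerves. Leaving out single arrays gave differences from 1.10 to 1.57. Sema3a passed the filter only through its Eed cKO arrays and was kept in each of these fits, so they are no separate support.

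Sema3d had the next largest difference of the class without a call. Its signal was 1924 and 3397 in Wt and 3451 and 5488 in Eed cKO, so the brighter Wt array and the dimmer Eed cKO array were nearly equal. The difference of 0.76 carried a standard error of 0.29 and an adjusted p of 0.124. It passed without Wt replicate 2 (adjusted p 0.00150), without Eed cKO replicate 1 (0.0331) and with the replicate number as a block (0.000337). Sema3c, a guide of cardiac neural crest cells, was 1586 and 2418 in Wt and 2183 and 2652 in Eed cKO, with overlap and an adjusted p of 0.347. Without Wt replicate 2 it passed (0.0136), and without Wt replicate 1 its difference was -0.01.

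Sema3e, which binds Plxnd1 without a neuropilin, was 2325 and 2220.1 in Wt and 2613 and 2836 in Eed cKO, a difference of 0.26 (adjusted p 0.0539) that passed without Eed cKO replicate 1 (0.0256). Sema3f, a ligand of Nrp2, was 4259 and 3915 in Wt and 4811 and 4723 in Eed cKO, a difference of 0.22 (adjusted p 0.0530) that passed with the replicate block (0.0479). Both genes sat just outside the threshold. Sema3b differed by 0.19 and Sema3g by -0.24, neither past it. In Sema3g both Eed cKO arrays, 976 and 1093, were below both Wt arrays, 1174 and 1278.

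Sema3d, Sema3a, Sema3e and Sema3c are neighbours on chromosome 5 with other genes among them. Sema3a was the one of the 4 that passed. Of the 8 other genes measured in that stretch, Cacna2d1, a calcium channel subunit, was higher by 0.29. With the 4 semaphorins counted, 8 genes of the stretch were tested and 2 were higher, against 9.63% of all genes. Epha3 and Robo1 lie on chromosome 16 with Epha6 and Robo2 at the ends of the stretch. Among the 15 other genes measured there, Vgll3, a cofactor of Tead transcription factors, was higher by 1.99. It read 641 and 686 in Wt and 2329 and 3182 in Eed cKO. With the 4 guidance genes counted, 12 genes of the stretch were tested, 3 higher and 0 lower. Of all genes tested, 9.63% were higher and 6% lower. Vgll3 and Cacna2d1 were named after their values were seen.

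Of the membrane-bound semaphorins, none of the 5 class Sema4 genes tested was called, a number too small to set against the 9.63% of all genes that were higher. All 5 differences were positive, from 0.23 in Sema4g to 0.32 in Sema4c. These are ligands of class B plexins with roles in immune cells, vessels and bone, where Sema4d is made by osteoclasts. Sema4b missed the threshold most narrowly, with 1990.4 and 1874 in Wt and 2501 and 2248 in Eed cKO and an adjusted p of 0.0506. It passed without Eed cKO replicate 2 (0.0207) and with the replicate block (0.0314), and Sema4c passed without Eed cKO replicate 1 (0.0204) and with the block (0.0286). Sema4f was under the filter. Sema5a and Sema5b, which carry thrombospondin repeats, overlapped between the groups, at differences of -0.06 and 0.08.

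In class Sema6, whose members act both as ligands and as receptors of class A plexins, Sema6d read 1043 and 1216 in Wt and 1522 and 1416 in Eed cKO, a difference of 0.37 (adjusted p 0.0419). That call was lost without Wt replicate 1 or Eed cKO replicate 1, with an adjusted p of up to 0.272. Sema6a, Sema6b and Sema6c did not pass. Sema6a was 3374 and 4495 in Wt and 3484 and 4539.8 in Eed cKO, a difference of 0.03, with the arrays of a group farther apart than the groups. The 2 probe sets of Sema6b hold identical values and were counted once.

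Sema7a, anchored to the membrane by a lipid and known to signal through integrins and Plxnc1, rose. It was 1634 and 1404 in Wt and 2521 and 2587 in Eed cKO, a ratio of the means of 1.68 and a log2 difference of 0.74 (adjusted p 0.00247). The groups did not overlap, and the call held without any single array. Plxnc1 itself was under the filter, at 577 and 544 in Wt and 508 and 495 in Eed cKO, with the Eed cKO arrays the lower ones (adjusted p 0.347 in the fit without the filter).

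All 4 class A plexins, the signalling receptors for class Sema3 and Sema6 proteins, were higher in the fit of all arrays. Across all genes tested the share was 9.63%. Plxna1 was 7092 and 7445 in Wt and 10215 and 9447 in Eed cKO, a log2 difference of 0.43 (adjusted p 0.00295) that held without any single array. Plxna2 was 1831 and 1894 in Wt and 2892 and 2352 in Eed cKO, a difference of 0.48 (adjusted p 0.0223). Its Eed cKO arrays were far apart, and without Wt replicate 1 the adjusted p was 0.0510.

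Plxna3 read 1639.8 and 1709 in Wt and 2158 and 1985 in Eed cKO, a difference of 0.30 (adjusted p 0.0391). Plxna4 read 778 and 754 in Wt and 1062 and 1008 in Eed cKO, a difference of 0.42 (adjusted p 0.0135). Both lost the call without Wt replicate 1 or Wt replicate 2, with adjusted p of up to 0.229 and 0.0845, and Plxna3 also lost it without Eed cKO replicate 1. So of the class, Plxna1 alone was called whichever array was left out.

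Class B plexins, receptors of class Sema4 proteins, gave no call. Plxnb2 was 12745 and 13223 in Wt and 14029 and 14222 in Eed cKO, separate but with a small difference of 0.12 (adjusted p 0.0693), which passed after quantile normalization (0.0389). Plxnb1 was 4569 and 4932 in Wt and 4801 and 4801 in Eed cKO, a difference of 0.02 (95% confidence interval -0.12 to 0.15). Plxnb3, expressed in glia and X-linked, also overlapped. Plxnd1, the receptor of Sema3e that is known from endothelium and from the patterning of vessels and skeleton, rose from 2691 and 2469 to 4008 and 3943, a log2 difference of 0.62 (adjusted p 0.00173) that held without any single array.

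Slit3 and Robo1 rose together. Slit3, a secreted ligand, read 1081 and 1109 in Wt and 1802 and 1903 in Eed cKO, a ratio of the means of 1.69 and a log2 difference of 0.74 (adjusted p 0.00128). Robo1, its receptor, read 2489 and 2305 in Wt and 3951 and 3917 in Eed cKO, a ratio of 1.64 and a log2 difference of 0.71 (adjusted p 0.000974). In both genes the groups were far apart relative to the gaps between arrays, and both calls held without any single array.

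Slit1 was dim, at 635 and 589.5 in Wt and 871 and 747 in Eed cKO, and its difference of 0.38 (adjusted p 0.0438) was lost without Wt replicate 1, Wt replicate 2 or Eed cKO replicate 1, with an adjusted p of up to 0.196. It was also lost without the filter (0.0557). Slit2 and Robo2 were under the filter. Robo2 was 333 and 444 in Wt and 591 and 770.3 in Eed cKO, and in the fit without the filter its difference of 0.76 had an adjusted p of 0.0253. Slit2 was 439.9 and 602 in Wt and 555 and 712 in Eed cKO, with overlap. Robo3 was under the filter and Robo4, a receptor of endothelium, differed by 0.05 with overlapping groups.

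The 3 Unc5 receptors tested, which bind netrins and act in repulsion and as dependence receptors, were all higher in the fit of all arrays. The share over all genes tested was 9.63%. Unc5b, known from endothelium, was 1689.8 and 1946 in Wt and 3875 and 3853 in Eed cKO, a ratio of the means of 2.13 and a log2 difference of 1.08 (SE 0.08, adjusted p 0.000460). Unc5a was 667 and 672 in Wt and 1208 and 1390.2 in Eed cKO, a ratio of 1.94 and a log2 difference of 0.92 (adjusted p 0.00125). Both held without any single array.

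Unc5c was the smallest change with a call, from 11425 and 11417 in Wt to 12521 and 12537 in Eed cKO, a ratio of 1.10. The arrays of each group nearly coincided, and the log2 difference of 0.13 had an adjusted p of 0.0460. That call was lost without any single array, with an adjusted p between 0.0696 and 0.220, without the filter (0.0605), without the intensity trend (0.159) and with the replicate block (0.0642). Unc5d was under the filter, at 495 and 461 in Wt and 563 and 536 in Eed cKO, and its second probe set went the same way.

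Of the netrins, Ntn4, a laminin-related protein of basement membranes, read 808 and 864 in Wt and 1103 and 1089 in Eed cKO, a difference of 0.38 (adjusted p 0.0198) that was lost without Wt replicate 1 or Wt replicate 2, with an adjusted p of up to 0.151. Ntn1, the classical ligand of Unc5 receptors and Dcc, was 908 and 976 in Wt and 1024 and 1071 in Eed cKO, and its difference of 0.15 did not pass (adjusted p 0.265). Of the 23 higher calls in all families, 15 held whichever single array was left out.

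A list of 69 further genes that work with these families was read beside them, with co-receptors, other ligands, ligand-processing enzymes and intracellular effectors. It was also chosen with earlier results of these data known. Of the 61 tested, 15 were higher (24.6%) and 3 lower, against 9.63% and 6% of all genes, with a median log2 difference of 0.07 against 0.00. Both neuropilins, the co-receptors of the class Sema3 proteins, were higher. Nrp2 read 2759 and 2729.6 in Wt and 6366 and 6448 in Eed cKO, a log2 difference of 1.21 (adjusted p 7.78e-05). Nrp1 read 3345 and 3546 in Wt and 6264 and 6501 in Eed cKO, a log2 difference of 0.88 (adjusted p 0.000253). Neuropilins also serve as co-receptors for Vegf.

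Among further ligands, the Flrt proteins, which bind Unc5 receptors, were higher. Flrt2 read 3123 and 3187 in Wt and 5209 and 6304 in Eed cKO, a log2 difference of 0.85 (adjusted p 0.00163), Flrt3 was higher by 0.51 (adjusted p 0.00557) and Flrt1 by 0.38 (adjusted p 0.0134). Gpc1, a heparan sulfate proteoglycan that binds Slits, was higher by 0.45 (adjusted p 0.00823). Adam10, the metalloprotease that cleaves ephrins, was 2851 and 2658 in Wt and 4541 and 4194 in Eed cKO, a log2 difference of 0.66 (adjusted p 0.00158). The netrin receptor Dcc and its relative Neo1 did not pass, at -0.04 and -0.07, nor did Rgma and Rgmb, the repulsive ligands of Neo1.

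Of 45 intracellular effectors tested, 8 were higher (17.8%) and 2 lower, against 9.63% and 6% of all genes. Chn1, a Rac inhibitor that acts below Eph receptors, was 722 and 721 in Wt and 1659 and 1759.9 in Eed cKO, a log2 difference of 1.21 (adjusted p 0.000234). Mical2, a redox enzyme that takes actin filaments apart, was higher by 0.65 (adjusted p 0.00246), the adaptor Gipc1 by 0.36 (adjusted p 0.00963) and Grip1, which binds the tails of ephrin-B ligands, by 0.44 (adjusted p 0.0122). Ngef, the guanine nucleotide exchange factor bound by EphA receptors, was lower, from 4644 and 4543 to 3636 and 3568, a log2 difference of -0.35 (adjusted p 0.00709). Met, a receptor that associates with class B plexins, fell by 0.43 on the log2 scale (adjusted p 0.0270), as did Enah, a regulator of actin filaments, by 0.16 (adjusted p 0.0353). Met, Enah, Dcc, Neo1, Rgma and Rgmb were named after their values were seen. Of the 18 calls on the list, 9 were lost without at least 1 single array, including Gipc1, Grip1, Met, Enah and Flrt1 among those named here, and without Wt replicate 1 the count of higher genes was 8. Without Wt replicate 1 the adjusted p was 0.0532 for Gipc1, 0.0715 for Grip1 and 0.121 for Met, and over the arrays left out it reached 0.186 for Enah and 0.103 for Flrt1.

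**Figure D5:**
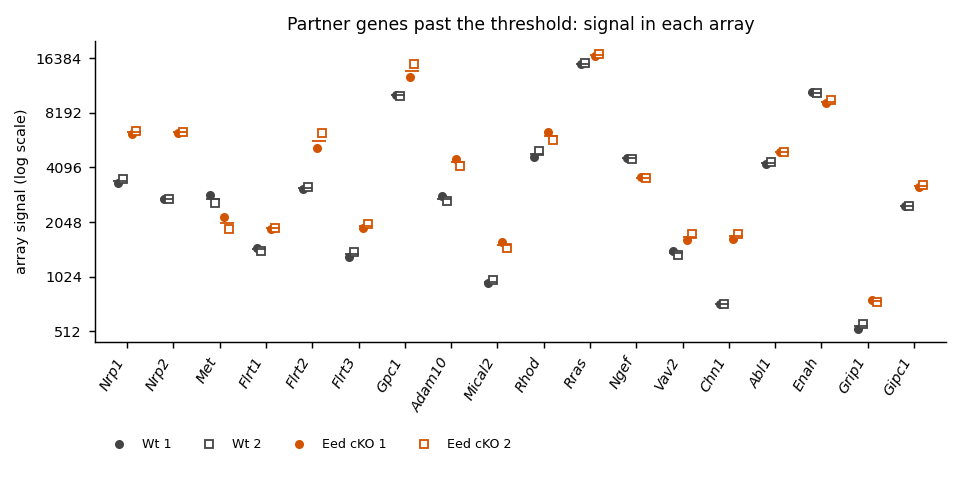
Array signal on a log scale for the 18 genes past the threshold on the list of co-receptors, further ligands, enzymes and effectors, with each array as a point (filled circles replicate 1, open squares replicate 2, grey Wt, orange Eed cKO) and group means as short lines. Nrp1, Nrp2 and Chn1 show wide gaps between the groups, and Met, Ngef and Enah are the 3 with the Eed cKO points below.

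Ligand and receptor were thus both higher for several of the pairs that bind each other. This held for Slit3 with Robo1, for Sema3a with Nrp1 and Plxna1, for Efnb1 and Efnb2 with Ephb2, and for Flrt3 with Unc5b. Epha2 and Efna1 were called in opposite directions, higher and lower. Plxnd1 rose while Sema3e did not pass, and Unc5b rose while Ntn1 did not pass. Efnb2 rose while Ephb4 did not pass (adjusted p 0.0772), and Nrp2 rose while Sema3f did not pass (adjusted p 0.0530). Sema7a rose while Plxnc1 was under the filter. Among the guidance genes tested, 59.1% of receptors and 32.3% of ligands were higher, against 9.63% of all genes. The pairs were named with the values known and were not tested as pairs.

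Markers of other cell types that carry these genes were read beside the results. Of 12 endothelial markers 9 were tested, with Cdh5 higher by 0.29 and Plvap lower, and their summed signal lay between 14800 and 15317 in Wt and between 14816 and 15865 in Eed cKO. Neuron markers gave no call among 4 tested of 10, with sums between 5042 and 5241. Schwann cell markers gave 1 higher call, Mbp, among 7 tested, with sums of 6843 and 7243 in Wt and 7668 and 8779.6 in Eed cKO. Of 13 fibroblast and perichondrium markers 7 were higher and 1 was lower, and their sums were 94426 and 100643 in Wt and 107912 and 116170 in Eed cKO. Among them Twist1 read 888 and 889 in Wt and 1997 and 2216 in Eed cKO. The lower one was Dcn, at 27236 and 29198.5 in Wt and 23250 and 24307 in Eed cKO (adjusted p 0.00880). Lum and Col3a1 did not pass, at -0.06 and 0.01. Hypertrophic markers gave 3 higher calls and 1 lower of 4, the lower one being Col10a1 (-0.37, adjusted p 0.0449). Muscle markers gave 3 higher and 1 lower of 9 tested, the lower one being Ttn (-0.88, adjusted p 0.00325). Across all genes tested the shares were 9.63% higher and 6% lower. Macrophage markers gave no higher call and 2 lower among 10 tested, C1qb (-0.38, adjusted p 0.0225) and Cd14 (-0.38, adjusted p 0.0413), with sums of 17625 and 17144 in Wt and 17668 and 16206 in Eed cKO. The part of the osteoblast, fibroblast, macrophage and other marker shifts in the higher signal of the guidance genes was not tested.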

How the data were processed

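Total RNA of 4 samples, 2 Wt and 2 Eed cKO, was measured on Affymetrix Mouse Gene ST arrays. The deposited values are linear signal intensities per probe set, which the authors had brought to a common level across arrays; the methods of background correction and normalization were not given in the sources used here. A second deposited table held the same values (largest difference 0). Columns of the authors' ratios between groups were not used.

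Of 35512 probe sets 25175 could be named, 18664 by accession, 2420 by symbol and 1957 by an older name through the RefSeq gene table, with the name of the file kept for 2134. One probe set per gene was kept, that with the highest mean. Genes with a mean signal under the 33rd percentile (623) were left out. Values were analysed as log2(signal + 32) with limma 3.58.1 in R 4.3.3 (lmFit and eBayes with an intensity trend, two-sided, 2 residual degrees of freedom, 6.99 after moderation), with p-values adjusted by the Benjamini-Hochberg method over the 14944 genes kept and a threshold of 0.05. A log2 difference is Eed cKO minus Wt on that scale, which understates changes of dim genes. The number of arrays limits the precision. The fit was tested on simulated data.

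Members, partner genes and cell type markers were chosen with earlier results of these data known. Every member is accounted for; values per array are given for each gene past the threshold, for the 3 brightest others, and for ligand or receptor partners of called genes, and partner genes are named by smallest p. Alternatives were a pseudocount of 1, no filter, no trend, quantile normalization, the mean of all probe sets of a gene, a replicate block, the methods' t-test, the fold rule of the study, and each array left out. Promoters came from RefSeq on GRCm38.p6, with 55 of 64 genes matched, and the first listed start was used.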

Additional observations from a re-analysis of the deposited data

How the results depend on the processing

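The main counts were 23 higher and 1 lower guidance genes and 15 higher and 3 lower partner genes. In the whole table they were 1439 higher and 897 lower. Some of these counts moved by over 1.5 times in some of the settings that follow. The 23 did so only under the methods' t-test after Benjamini-Hochberg adjustment. The methods' t-test after Benjamini-Hochberg adjustment called 0 guidance genes and 0 partner genes in either direction, and 2 higher and 2 lower genes in the whole table. Unadjusted, the methods' t-test called 21 guidance genes higher and 0 lower, and limma gave 37 guidance genes and 4548 of all genes at an unadjusted p under 0.05. Without the trend 1 partner gene and 575 of all genes were lower. Leaving out single arrays gave 16 to 23 guidance genes higher, 8 to 16 partner genes higher and 1 to 3 lower, and 931 to 1580 genes higher and 395 to 1203 lower in the whole table, with the lowest counts without Wt replicate 1, except the 395 without Wt replicate 2. With 1 array left in a group, that array was taken to vary like those of the other group. In the other settings the guidance genes gave 20 to 26 higher.

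Direction turned only in genes that were not called. After quantile normalization the difference was -0.014 in Efnb3, -0.026 in Epha1, -0.015 in Plxnb1 and -0.0058 in Sema6a. Leaving out single arrays gave -0.0057 to 0.043 in Efnb3, -0.050 to 0.089 in Epha1, -0.20 to 0.043 in Ephb6, -0.038 to 0.071 in Plxnb1, -0.016 to 0.13 in Robo4, -0.0070 to 0.59 in Sema3c, -0.13 to 0.0099 in Sema5a, -0.18 to 0.24 in Sema6a and -0.16 to 0.030 in Sema6b. Beyond the calls given with each gene, Plxna3 (0.0684), Sema6d (0.0645) and Slit1 (0.0578) lost theirs after quantile normalization, and Sema6d (0.0554) and Slit1 (0.0531) without the trend. The cause was not tested.

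The replicate numbers were not taken as pairs. Deviations of same-numbered arrays correlated at -0.01 over 14944 genes, but at 0.64 over the 53 guidance genes tested. No source ties the numbers to litters, although the methods describe littermate comparisons. With the replicate number as a block 26 guidance genes were higher, 22 of them among the 23, and 1 was lower. The block also gave 14 higher and 4 lower partner genes and 1539 higher and 991 lower in the whole table.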

Other observations

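The second array of a group was at least 25% brighter than the first in both groups for Epha3, Robo2, Sema3d, Sema6a and Slit2, which are 5 of the 64 guidance genes (7.81%) and 3 of the 53 tested (5.66%), against 39 of all 14944 genes tested (0.261%). The opposite order in both groups was seen in 0 guidance genes and in 31 of all genes (0.207%). Over the 53 tested guidance genes the deviations of same-numbered arrays correlated at 0.64, a description across genes that share the 4 arrays. Sema6a was 3374 and 4495 in Wt and 3484 and 4539.8 in Eed cKO, so this gene differed within the groups and hardly between them. The 5 genes were named after their values were seen, and although the methods describe littermate comparisons, no source ties the replicate numbers to litters.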
